A study of Canis lupus familiaris with 7 samples.

Results

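Heat shock proteins, their co-chaperones and the FK506-binding proteins (FKBPs) were described across 7 primary canine osteosarcomas, a bone tumour, to set tumours that had lost DLG2 beside tumours that had not. The family was taken by name: every non-control probe whose gene name begins with HSPA, HSPB, HSPD, HSPE, HSPH, HSP90 or DNAJ, or with FKBP or CCT and a number. This gave 120 of the 43603 probes on the array, for 70 gene names. A probe was kept when it stood well above background on at least 3 of the 7 arrays, and 109 of the 120 probes, for 64 genes, were kept. The 6 genes without a kept probe were CCT8L2, DNAJB7, DNAJC5B, DNAJC6, FKBP6 and HSPB3. The family was selected on an earlier difference between the groups, the lower FKBP4 signal of deleted tumours on probes that disagreed, so the comparison of FKBP4 between the groups is given as a description without a test, and it is left out of the counts below where stated.

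The 4 tumours with the genotype DLG2 deleted came from an 8-year-old German Shepherd and Collie cross (MC in the gender label), a 9-year-old Rottweiler cross (FS), a 6-year-old Greyhound (MC) and a 7-year-old Great Pyrenees (FS), here deleted tumours 1 to 4. The 3 tumours with the genotype DLG2 wild type came from a 12-year-old Boxer (FS), a 10-year-old Labrador Retriever cross (FS) and an 8-year-old Bull Mastiff (MC), here wild-type tumours 1 to 3. All were veterinary clinic specimens of whole tumour, so breed, age and germline background differ from animal to animal, no treatment is given in the sources used here, and 1 one-colour (Cy3) array was hybridised per tumour. DLG2 codes for a membrane-associated scaffold protein, and its deletion had been found in the tumours by array comparative genomic hybridisation.

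Heat shock proteins hold unfolded or newly made proteins until they reach their final shape. HSP70s bind short exposed stretches with the help of DNAJ proteins, which hand over clients and start ATP hydrolysis, and of nucleotide exchange factors such as HSPH1 and HSPA4, while HSP90s act later on kinases and steroid receptors, together with FKBP4 and FKBP5. The CCT chaperonin is a double ring of related subunits that folds actin and tubulin. The endoplasmic reticulum (ER) and mitochondria have their own HSP70s, HSPA5 and HSPA9, with their own DNAJ partners, and several ER FKBPs help to fold collagen, the main protein that bone-forming cells secrete. Many of the cytosolic members are induced together by heat shock factor 1 when proteins unfold.

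Each value below is a log2 normalised intensity of 1 probe of 60 bases. The brightness of different probes cannot be set against each other, so levels are compared only between tumours. The sequences of 5 probes are shown. They report FKBP4, on which the family was chosen, CCT3 and DNAJA4, whose groups did not overlap, HSPB8, the gene with the largest positive difference, and DNAJA3, on a probe that went against the brightest probe of its gene. The sequences are read from the array files in the sense of the transcript. Where only 1 of the 3 reading frames is free of stop codons, capitals mark the whole triplets of that frame. The frames were not checked against a protein, so the capitals need not be codons of the gene along their whole length.

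FKBP4, probe A_11_P172868: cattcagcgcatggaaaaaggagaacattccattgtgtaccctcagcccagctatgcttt

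CCT3, probe A_11_P0000025028: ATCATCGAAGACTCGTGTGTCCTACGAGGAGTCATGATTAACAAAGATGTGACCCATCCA

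DNAJA4, probe A_11_P00000707: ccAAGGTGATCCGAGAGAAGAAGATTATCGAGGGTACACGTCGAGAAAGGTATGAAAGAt

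HSPB8, probe A_11_P159253: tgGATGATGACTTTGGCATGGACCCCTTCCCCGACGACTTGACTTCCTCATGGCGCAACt

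DNAJA3, probe A_11_P0000024801: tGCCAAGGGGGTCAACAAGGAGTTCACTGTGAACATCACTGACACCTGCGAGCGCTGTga

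On the canFam2 build these probes lie at chr27:44984696-44985409 (minus strand), chr7:44546986-44547045 (plus), chr3:61261847-61262806 (plus), chr26:18362041-18362100 (plus) and chr6:39995646-39995705 (minus). The FKBP4 probe is spread over 714 bases and the DNAJA4 probe over 960 bases of genome for 60 bases of sequence, so each crosses a gap in its alignment. All 3 frames of the FKBP4 probe are free of stop codons, so none of its bases is in capitals. Exon, intron and untranslated-region annotation on this build was not used here.

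Each array had 30280 to 34538 probes well above background, the most in wild-type tumour 3, and 0 saturated spots. Of the 144 outlier-marked values 98 were on the array of deleted tumour 1 and 5 to 14 on each of the others, and Pearson r between arrays over the 32309 kept probes lay from 0.94 to 0.99. Wild-type tumours 1 and 2 were the most alike pair. The arrays lay on 5 slides, of which 1 carried deleted tumours 2 and 3 together with wild-type tumour 2, and the others carried 1 array each. Of 11 osteoblast markers 7 had a kept probe, COL1A1 and RUNX2 among them, and SP7, IBSP, SPP1 and DMP1 had none. As the median deviation from the mean of the 7 tumours, these 7 ran from -0.97 in deleted tumour 2 to 0.49 in deleted tumour 4. A list of 5 adipocyte markers stood at 3.12 in deleted tumour 4 against -0.61 to -0.28 in the other 6. Osteoclast markers were highest in wild-type tumour 3, at 2.77, and had a median difference of -1.55 between the groups, and cartilage markers were highest in deleted tumour 2, at 1.98, with a median difference of 0.78. Endothelial and leukocyte markers were highest in deleted tumour 3, at 1.09 and 0.61. The part of these cells in the values below was not tested. The DLG2 probe read 10.38, 11.44, 10.51 and 10.84 in the deleted tumours and 10.91, 12.03 and 11.75 in the wild-type tumours. These ranges overlapped. The probe, at chr21:18338004-18338063, lies outside the focal deletion interval that the study names in dogs, for which no genome build is stated. How far the deletion of each tumour extends is not given, so the probe was not used to check the genotype labels. The tumours are bulk samples, in which fewer cells of a type and less RNA per cell cannot be told apart.

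No member passed the threshold. The threshold was an unadjusted p below 0.05 together with an adjusted p below 0.1 in limma's moderated test over all kept probes. Of 32309 probes 0 passed (0.0%), members included, and 2355 had an unadjusted p below 0.05. Leaving FKBP4 aside, 8 of 105 member probes were lower in deleted tumours at an unadjusted p below 0.05, against 4.17% of all kept probes, and 1 was higher, against 3.12%. The 8 came from 6 genes, since both probes of HSPA4 and both of DNAJA4 were among them. Single tumours moved these counts. Without deleted tumour 3, 13 member probes were higher, and without deleted tumour 1, 14 were lower, while slide as a fixed block left 1 lower. The count over all kept probes, both directions together, moved as well. It was 2242 without deleted tumour 3, 2538 without deleted tumour 1 and 1374 with slide as a fixed block, against 2355. Whether the shifts were particular to the members was not tested. Counted once per gene, by the brightest kept probe, 5 of 63 genes were lower (3.92% of all 10137 genes with a symbol) and 1 was higher (3.63%). The 5 were DNAJA4, CCT5, CCT3, HSPA4 and DNAJA3, and the 1 was FKBP2. The lowest adjusted p among these members was 0.43. Groups without overlap were found for 6 lower and 3 higher of the 105 probes (4.25% and 3.93% of all kept probes), and for 4 lower and 2 higher of the 63 genes (3.58% and 4.12% of all genes with a symbol).

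The median difference over the 64 genes, FKBP4 included, was -0.07 on the log2 scale (deleted minus wild-type), against 0.02 over all genes with a symbol. Of the 64, 38 lay below 0, or 59.4%, against 47.0% of all genes. The differences between classes were not tested. The 4 CCT genes had a median difference of -0.45 and the 7 cytosolic HSP70 and HSP110 genes -0.48, with single genes from -1.01 to 0.58 and a median of 0.07 with age as a covariate, while the 15 cytosolic and nuclear DNAJ genes were at -0.09, the 5 cytosolic FKBPs at -0.05, the 16 ER members at -0.07 and the 7 mitochondrial members at 0.04. The 3 small heat shock proteins had a median of 0.01 and the 6 genes not assigned to a compartment 0.08. Among the 8 classes with more than 1 gene, CCT was the class whose value per tumour, the median over its genes of the deviation from the mean of the 7 tumours, did not overlap between the groups. It ran from -0.32 to -0.10 in the deleted tumours and from 0.18 to 0.39 in the wild-type tumours. Of its 4 genes, CCT3 and CCT5 had groups without overlap, while CCT8 and CCT6B overlapped. How often other gene sets of this size separate was not computed. The median over all 64 genes was lowest in deleted tumour 3, at -0.23, and lay between -0.02 and 0.09 in the other 6.

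**Figure D1:**
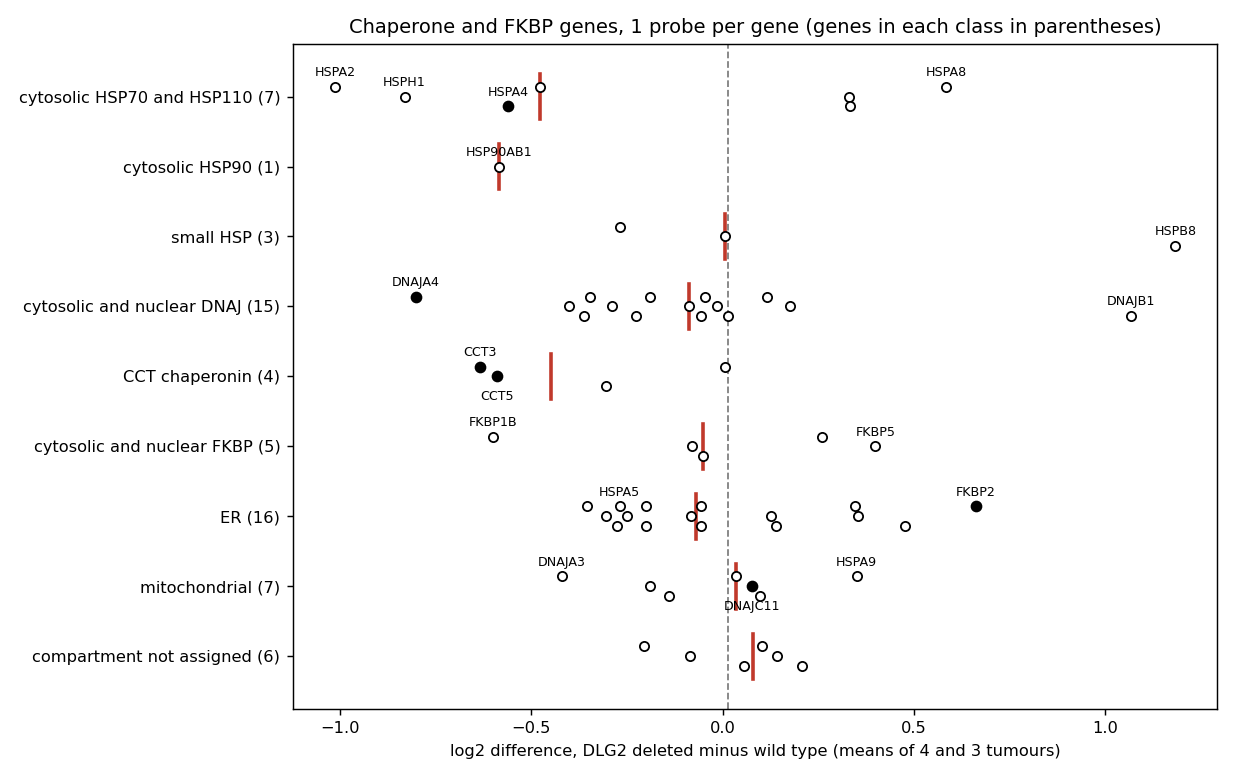
Log2 difference between the mean of 4 DLG2 deleted and the mean of 3 wild-type tumours (x axis) for 64 chaperone and FKBP genes, by class (y axis). Each point is a gene at its brightest kept probe, filled where the groups do not overlap, red lines are class medians and the dashed line is the median of all genes with a symbol (0.02). The CCT and HSP70 classes have medians of -0.45 and -0.48, and HSPB8 and DNAJB1 lie farthest to the right.

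Of the 4 CCT genes, CCT3 and CCT5 had groups that did not overlap, each on its only kept probe. CCT3, the gamma subunit, read 8.88, 9.51, 9.27 and 9.23 in the deleted tumours and 9.97, 9.81 and 9.78 in the wild-type tumours. Every deleted tumour was below every wild-type tumour, with a gap of 0.27 between the groups. The difference was -0.63 ± 0.16 (SE), a 1.55-fold lower mean, with an adjusted p of 0.50. CCT5, the epsilon subunit, read 11.31, 11.28, 11.23 and 11.73 in the deleted tumours and 12.03, 11.90 and 12.00 in the wild-type tumours. Its groups did not overlap either, and the difference was -0.59 ± 0.14 (SE), with an adjusted p of 0.49. Within the slide that held both groups, CCT3 differed by -0.42 and CCT5 by -0.65.

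Other subunits gave a mixed account. CCT8, the theta subunit, read from 11.76 to 13.41 in the deleted tumours and from 12.62 to 13.16 in the wild-type tumours, so that the wild-type range lay inside the deleted range. Its 3 probes differed by -0.30, -0.16 and 0.10. CCT6B, a subunit known mainly from testis, was dim and nearly level, with a difference of 0.01. Some probes carry no gene symbol but are described in the files as a subunit. The one described as CCT4, the delta subunit, read 10.52, 10.83, 10.56 and 10.73 in the deleted tumours and 11.26, 11.01 and 11.29 in the wild-type tumours, without overlap, and its difference of -0.53 ± 0.12 (SE) had an adjusted p of 0.49. Those described as CCT6A and CCT2 differed by -0.31 and -0.18 with overlapping groups. The CCT2 probe was dim, at 6.84 to 7.39 over the 7 tumours, and neither probe has genome coordinates. TCP1, the alpha subunit, which the naming rule does not reach, differed by -0.45 ± 0.27 (SE), and deleted tumour 4 had its highest value of the 7, 12.14.

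**Figure D2:**
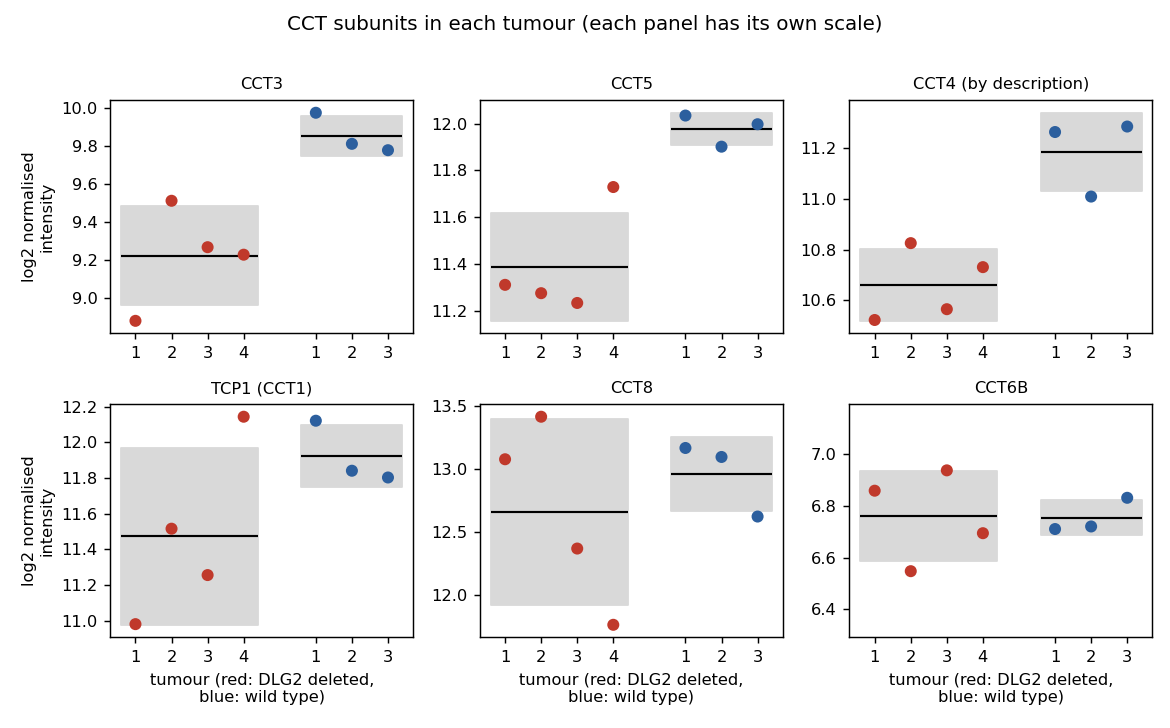
Log2 normalised intensity (y axis) of 6 CCT subunits in each tumour (x axis, deleted tumours 1 to 4 in red and wild-type tumours 1 to 3 in blue), with group means as lines and ± 1 SD as grey bands. The groups do not overlap for CCT3, CCT5 and the probe described as CCT4, and they overlap for TCP1, CCT8 and CCT6B.

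Among the cytosolic HSP70s and their exchange factors, HSPA4 was the gene whose groups did not overlap. HSPA4, an HSP110-type exchange factor, read 11.13, 11.57, 11.77 and 11.38 in the deleted tumours and 11.98, 12.24 and 11.85 in the wild-type tumours. The gap between the groups was 0.08, the difference -0.56 ± 0.18 (SE) and the adjusted p 0.58. Its second probe, which followed the first with r = 0.99 over the 7 tumours, differed by -0.49 and did not overlap either. On the shared slide HSPA4 differed by -0.56.

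HSPA2 and HSPH1 spread widely, and their probes gave differences of different size. HSPA2, an HSP70 best known from sperm development, read 10.98, 10.47, 8.65 and 9.48 in the deleted tumours and 10.996, 11.04 and 10.69 in the wild-type tumours. Deleted tumours 3 and 4 were low and deleted tumour 1 lay within the wild-type range, and the difference was -1.01 ± 0.54 (SE, adjusted p 0.76), or -0.60 without deleted tumour 3. Its other probes differed by -0.48 and -0.28. HSPH1, the inducible HSP110, read 11.67, 11.39, 9.15 and 9.68 against 11.94, 11.82 and 10.15, with 1 low tumour in the wild-type group too. Its difference was -0.83 ± 0.76 (SE, adjusted p 0.90), and it ran from -1.41 without wild-type tumour 3 to -0.39 without deleted tumour 3 and was 0.70 with age as a covariate. The other HSPH1 probes differed by -0.33 and -0.18.

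HSPA8, the constitutive HSP70 of the cytosol, went the other way in its means. It read 15.80, 15.24, 13.99 and 15.68 in the deleted tumours and 14.75, 14.74 and 14.30 in the wild-type tumours, so deleted tumours were both the highest 3 and the lowest 1 of the 7. The difference of 0.58 ± 0.44 (SE) had an adjusted p of 0.86 and was -0.12 on the shared slide. It ran from 0.38 without deleted tumour 1 to 0.98 without deleted tumour 3. HSPA1L, an HSP70 of the testis, stood at 8.88 in deleted tumour 1 against 6.78 to 7.53 in the other 6. No probe carried the name or description of HSPA1A, the main heat-inducible HSP70.

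HSP90AB1, the constitutive cytosolic HSP90, was very even in the wild-type tumours, at 15.40, 15.36 and 15.45. In the deleted tumours it read 15.88, 14.79, 14.10 and 14.51, so that 3 lay below and deleted tumour 1 lay above the wild-type range. The difference was -0.58 ± 0.39 (SE, adjusted p 0.83). It was -0.94 without deleted tumour 1 and -0.35 without deleted tumour 3. The 2 probes described as HSP90AA1, the inducible form, differed by -0.24 and -0.23, and wild-type tumour 3 read lower in both than wild-type tumours 1 and 2. Of the 8 cytosolic HSP70, HSP110 and HSP90 genes, 5 had their lowest value of the 7 in deleted tumour 3 and 3 had their highest in deleted tumour 1.

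DNAJA4, a membrane-tethered DNAJ protein, had the smallest adjusted p of the tested members. It read 8.25, 8.26, 7.86 and 7.88 in the deleted tumours and 9.06, 8.73 and 8.80 in the wild-type tumours. The groups lay 0.47 apart, and the difference was -0.80 ± 0.15 (SE), a 1.74-fold lower mean, with an adjusted p of 0.43. The second probe, whose sequence is given above, differed by -0.57 and did not overlap either (r = 0.97 with the first). On the shared slide DNAJA4 differed by -0.67, and over the 21 alternatives tried its difference ran from -1.21 to -0.55.

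DNAJB1, the classical heat-inducible partner of HSP70, spread widely among deleted tumours. It read 13.49, 11.89, 10.50 and 12.67 there, and 11.08, 10.95 and 11.18 in the wild-type tumours. Deleted tumours 1, 2 and 4 were above all wild-type tumours and deleted tumour 3 was below them. The difference of 1.07 ± 0.65 (SE) had an adjusted p of 0.80 and was 0.24 on the shared slide. Its difference was 0.62 without deleted tumour 1 and 1.61 without deleted tumour 3, and its 2 probes followed each other closely. DNAJB4, another type II DNAJ protein, differed by -0.19 and its 3 probes by -0.19 to 0.01. The 2 probes described as DNAJA1, a main DNAJ partner of HSC70, differed by -0.34 and -0.50. The second of them did not overlap between the groups (adjusted p 0.58).

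Of the 15 cytosolic and nuclear DNAJ genes, 11 lay below 0 and 4 above. Apart from DNAJA4 and DNAJB1 they differed by no more than 0.40 in either direction, and the groups of all of them overlapped. A probe described as DNAJA2 lies next to the DNAJA1 probes on chromosome 11, so its gene is uncertain. One of the probes described as HSP90AA1 lies on chromosome 23 and the other on chromosome 8.

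HSPB8 had the largest positive difference of the 64 genes. This small heat shock protein works with BAG3 in clearing misfolded proteins by autophagy. It read 11.01, 10.47, 9.83 and 12.27 in the deleted tumours and 9.60, 9.27 and 10.27 in the wild-type tumours. Deleted tumour 4 was the highest, and deleted tumour 3 lay within the wild-type range. The difference was 1.18 ± 0.57 (SE), a 2.27-fold higher mean, with an adjusted p of 0.73, and it was 0.72 without deleted tumour 4, the tumour that was high in adipocyte markers. The part of those cells in the value was not tested. BAG3 itself differed by -0.10.

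The 5 probes named HSPB8 had differences from 0.80 to 1.18 and r of 0.98 or more between every pair. One pair of them consists of exact reverse complements at chr26:18374518-18374577, 1 on each strand. The plus-strand probe differed by 1.18 and the minus-strand probe by 1.17, and they correlated with r = 0.99 over the 7 tumours. The remaining HSPB8 probes lie on the plus strand, so the minus-strand probe has the opposite sense to all of them. What it detects was not tested. HSPB1, the most abundant small heat shock protein of many tissues, differed by 0.01 and had values from 13.10 to 13.78. HSPB7, a small heat shock protein of heart and muscle, differed by -0.27. No probe carried the name or description of HSPB6.

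**Figure D3:**
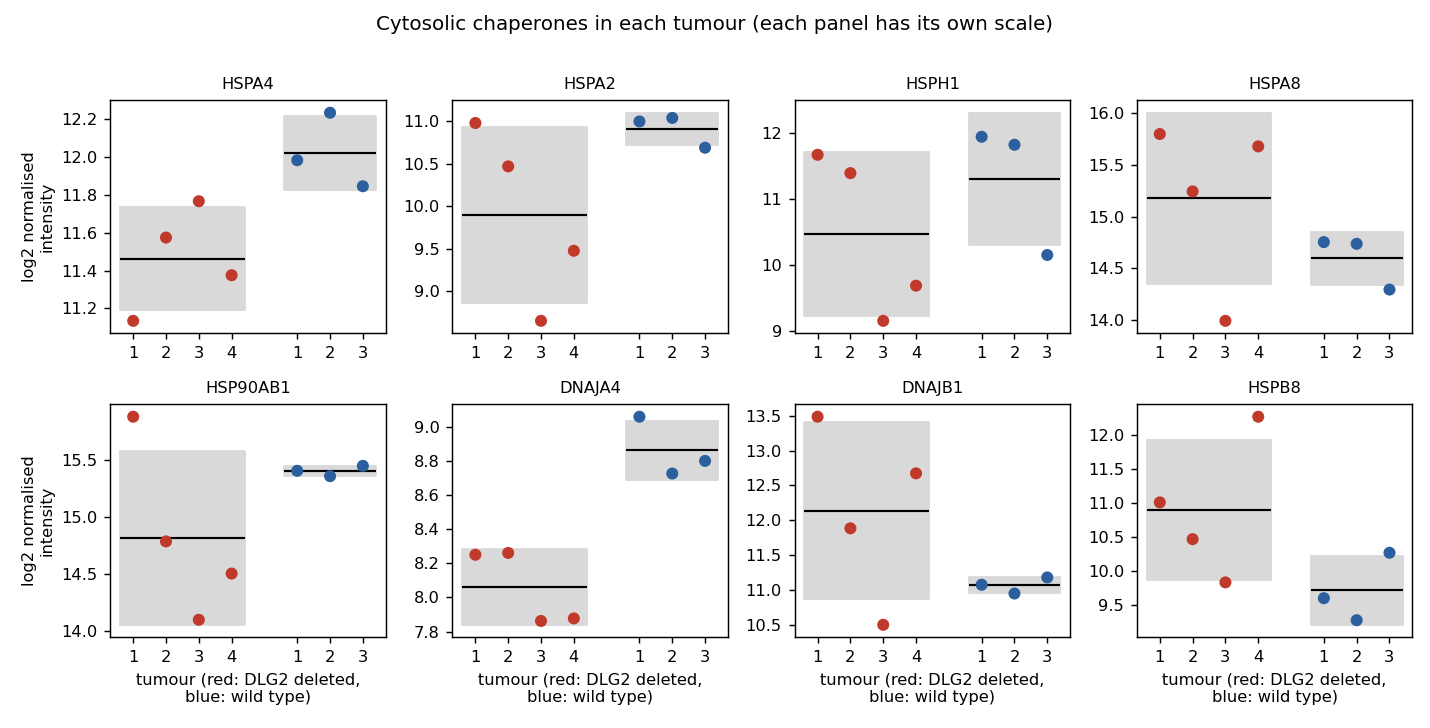
Log2 normalised intensity (y axis) of 8 cytosolic chaperone genes in each tumour (x axis, deleted tumours 1 to 4 in red and wild-type tumours 1 to 3 in blue), with group means as lines and ± 1 SD as grey bands. HSPA4 and DNAJA4 have groups that do not overlap, and HSP90AB1 and DNAJB1 vary over more than 1.7 in the deleted tumours and under 0.3 in the wild-type tumours.

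The spread within the deleted group was a feature of the family as of the array. Of the 64 genes, 47 had a larger SD in the 4 deleted than in the 3 wild-type tumours, or 73.4%, against 70.6% of all genes with a symbol. Wild-type tumours 1 and 2 were the most alike arrays, and this enters both shares. The range over the 7 tumours had a median of 0.97 for members and 0.80 for all genes, and was widest for HSPB8 (3.00), DNAJB1 (2.98), HSPH1 (2.79), FKBP7 (2.59) and HSPA2 (2.38).

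FKBP4, also known as FKBP52, brings steroid receptors and HSP90 together and carries them along microtubules. Its 4 probes were chosen for description because an earlier look at these tumours had found the gene lower in deleted tumours, and no test is given. Probe A_11_P172868, the most upstream of the 4 on the minus strand of chromosome 27, read 7.79, 7.64, 7.64 and 7.66 in the deleted tumours and 8.64, 8.69 and 8.31 in the wild-type tumours. The deleted tumours lay within 0.15 of each other, the gap to the wild-type tumours was 0.51, and the means differed by -0.86, or 1.82-fold. Probe A_11_P173248 read 9.47, 9.12, 8.98 and 9.17 against 10.81, 10.80 and 10.15, with a gap of 0.68 and a difference of -1.40, or 2.65-fold. Probe A_11_P123001, the most downstream, read 6.90, 6.68, 6.61 and 7.14 against 7.57, 7.53 and 7.02, so that deleted tumour 4 was above wild-type tumour 3, and differed by -0.54.

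The brightest FKBP4 probe did not follow the others. A_11_P0000023022 read 13.73, 14.06, 14.28 and 14.49 in the deleted tumours and 14.24, 13.94 and 14.48 in the wild-type tumours, and the means differed by -0.08. It lies only 180 bases from A_11_P173248, at chr27:44981746-44981805. Over the 7 tumours it correlated with the other 3 probes at r between -0.09 and 0.00, while those 3 correlated with one another at 0.86 to 0.99. As deviations from the group means, r between this probe and its neighbour A_11_P173248 was -0.72. None of the 3 reading frames of A_11_P0000023022, A_11_P173248 or A_11_P123001 is free of stop codons. On the shared slide the 4 differences, from upstream to downstream, were -1.05, 0.23, -1.75 and -0.88. Which transcripts the probes detect was not tested.

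**Figure D4:**
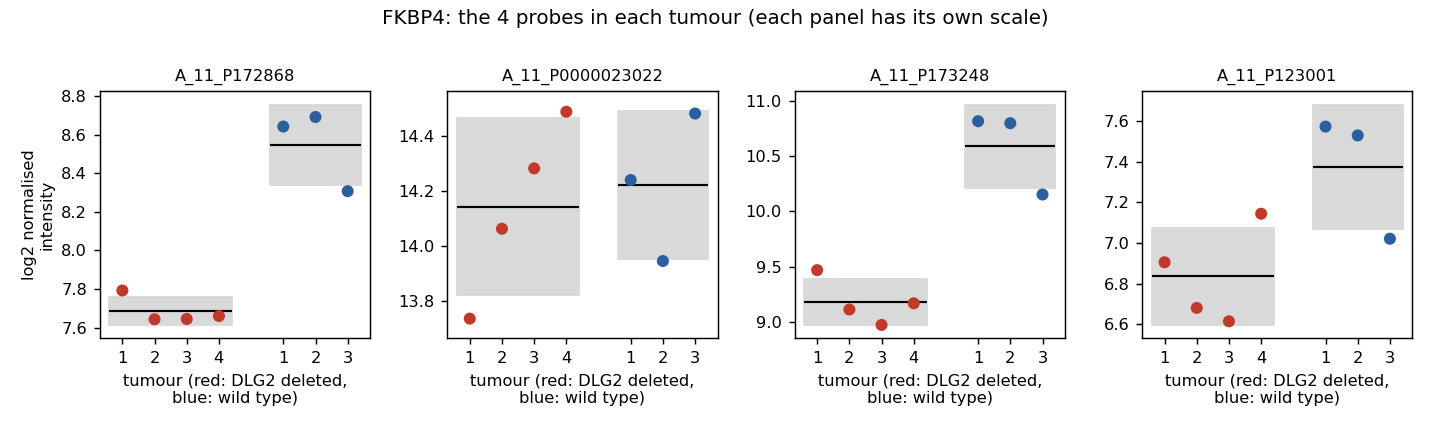
Log2 normalised intensity (y axis) of the 4 FKBP4 probes, ordered from upstream to downstream, in each tumour (x axis, deleted tumours 1 to 4 in red and wild-type tumours 1 to 3 in blue), with group means as lines and ± 1 SD as grey bands. A_11_P172868 and A_11_P173248 have groups that do not overlap (differences -0.86 and -1.40), and A_11_P0000023022 has group means within 0.08.

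The other cytosolic FKBPs differed in both directions. FKBP5 also acts with HSP90 on steroid receptors and is induced by glucocorticoids. It read 8.92, 9.78, 9.71 and 11.16 in the deleted tumours and 9.02, 9.31 and 10.14 in the wild-type tumours. Its difference of 0.40 ± 0.53 (SE, adjusted p 0.93) rested on deleted tumour 4, without which it was -0.02. FKBP1A, the small FKBP that binds rapamycin, read 7.60, 8.23, 7.97 and 8.21 against 7.73, 7.76 and 7.74, a difference of 0.26 ± 0.17 (SE, adjusted p 0.82). FKBP1B, its close relative on calcium release channels, differed by -0.60 and -0.45 at its 2 probes, with overlapping groups. FKBP15 differed by -0.05, and the 2 probes described as FKBP3 differed by -0.07 and 0.04. Among the steroid receptors that HSP90 and these FKBPs hold, NR3C1, the glucocorticoid receptor, differed by 0.08 (adjusted p 0.97).

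In the ER, the main chaperones differed little. HSPA5, also called BiP, read 14.31, 14.12, 13.83 and 13.90 in the deleted tumours and 14.32, 14.20 and 14.41 in the wild-type tumours, and differed by -0.27 ± 0.14 (SE, adjusted p 0.76). Its second probe differed by -0.30, and the remaining probe by 0.22 with an r of -0.20 and 0.04 with the others. HSP90B1, also called GRP94, read 15.04, 15.35, 14.39 and 14.95 against 15.22, 15.09 and 15.09, a difference of -0.20 ± 0.22 (SE). It was -0.019 without deleted tumour 3, -0.34 without deleted tumour 2 and 0.13 with age as a covariate. DNAJB9 and DNAJC3, DNAJ partners of HSPA5 that the unfolded protein response induces, differed by 0.13 and 0.14 with overlapping groups. Deleted tumour 1 was the highest of the 7 in both, at 8.68 and 11.02.

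FKBP2 was the ER member whose groups did not overlap, on its only kept probe. This small FKBP of the ER lumen read 10.82, 10.69, 10.72 and 11.48 in the deleted tumours and 10.14, 10.31 and 10.34 in the wild-type tumours. The gap was 0.35 and the difference 0.66 ± 0.21 (SE), a 1.58-fold higher mean, with an adjusted p of 0.58. Without deleted tumour 4 it was 0.48, and on the shared slide it was 0.39. FKBP10, which assists collagen cross-linking and is mutated in a brittle bone disease, read 9.71, 10.68, 10.88 and 11.38 against 11.06, 10.85 and 10.90. Deleted tumour 1 was its lowest, and its difference of -0.28 ± 0.37 (SE) became 0.04 without that tumour. FKBP14, another collagen-folding FKBP, differed by -0.20. FKBP7 was highest in deleted tumour 4 and wild-type tumour 3, at 13.84 and 13.36. Of the 16 ER members 10 lay below 0 and 6 above.

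The mitochondrial members did not share a direction. HSPA9, or mortalin, the mitochondrial HSP70, read 11.97, 12.39, 10.69 and 10.56 in the deleted tumours and 11.12, 11.10 and 10.94 in the wild-type tumours. Deleted tumours 1 and 2 were above and 3 and 4 below all wild-type tumours, and the difference was 0.35 ± 0.47 (SE, adjusted p 0.93). It was 0.02 without deleted tumour 2 and 0.63 without deleted tumour 4. The second HSPA9 probe also differed by 0.63, and on it deleted tumour 3, at 8.41, lay within the wild-type range of 8.28 to 8.56. The brighter of the 2 probes described as HSPD1, the chaperonin HSP60, differed by -0.57 and the other by -0.12, and that described as HSPE1, its lid HSP10, by -0.15. DNAJC11, a protein of the mitochondrial membranes, had groups that did not overlap, but they lay only 0.02 apart, with a difference of 0.08 (adjusted p 0.90). FKBP8, an FKBP of the mitochondrial outer membrane, differed by 0.10 and 0.09 at its 2 probes.

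DNAJA3, the DNAJ partner of HSPA9, had 5 kept probes that disagreed. The brightest read 10.50, 10.33, 10.24 and 10.46 in the deleted tumours and 10.89, 10.46 and 11.07 in the wild-type tumours, and differed by -0.42 ± 0.16 (SE, adjusted p 0.66). Probe A_11_P0000024801, whose sequence is given above, read 8.10, 8.63, 8.09 and 8.18 against 7.97, 8.00 and 7.80. All deleted tumours were above all wild-type tumours on it, with a difference of 0.33 and an adjusted p of 0.73. The other 3 probes differed by -0.20, -0.13 and 0.05, and the lowest r between any pair of the 5 was -0.66.

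Of 29 genes with 2 or more kept probes, 19 had all their probes on 1 side of 0 and 10 had probes on both sides. The 10 were DNAJA3, HSPA5, DNAJC1, DNAJC10, CCT8, HSPB7, HSPBAP1, DNAJB4, HSPBP1 and DNAJB14. The lowest r between probes of a gene over the 7 tumours was above 0.5 in 24 of the 29 genes and below 0 in 3, FKBP4, DNAJA3 and HSPA5. The differences of the probes of a gene spread by a median of 0.20 on the log2 scale, and those of FKBP4, which was chosen with this disagreement known, by 1.32.

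**Figure D5:**
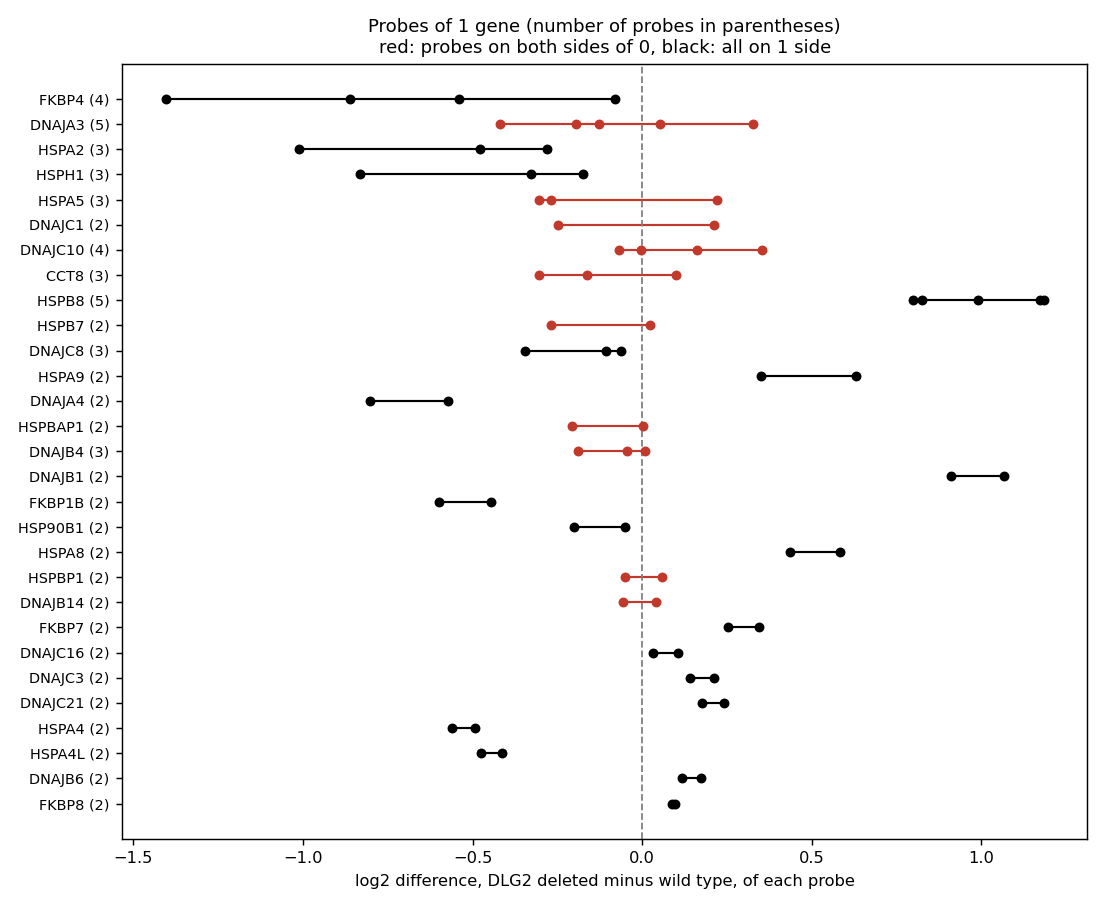
Log2 difference between DLG2 deleted and wild-type tumours (x axis) of every kept probe of the 29 genes with 2 or more kept probes (y axis), ordered by the spread between probes. FKBP4 and DNAJA3 spread the most, 1.32 and 0.75, and the 5 HSPB8 probes all lie between 0.80 and 1.18.

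Outside the named families, 82 genes of the folding pathways were listed and 65 had a kept probe. Of these, 0 were called, 3 were higher and 3 lower at an unadjusted p below 0.05 (3.63% and 3.92% of all genes with a symbol), and their median difference was 0.01. ERO1L, an oxidase that forms disulphide bonds in the ER, read 9.04, 8.93, 8.95 and 9.43 in the deleted tumours and 8.34, 8.66 and 7.90 in the wild-type tumours, without overlap, and differed by 0.79 ± 0.21 (SE, adjusted p 0.51). BAG6, a holdase for membrane proteins, differed by 0.43 ± 0.13 (SE, adjusted p 0.55). CLPP, the mitochondrial matrix protease, differed by -0.54 ± 0.16 (SE, adjusted p 0.55), and GRPEL2, an exchange factor for HSPA9, by 0.22 ± 0.08 (SE, adjusted p 0.65). The groups of these 4 did not overlap, as was so for 5 higher and 2 lower of the 65, against 4.12% and 3.58% of all genes with a symbol. HSF1, the regulator of the heat shock genes, read 12.10, 12.71, 11.68 and 12.39 against 11.93, 12.01 and 11.98, a difference of 0.24 ± 0.23 (SE).

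None of the relations tested across the 7 tumours passed adjustment. For 6 pairs of members, or of a member and a partner, chosen for a shared promoter, compartment or complex, Pearson r ran from 0.19 for HSPH1 with DNAJB1 to 0.74 for the probes described as HSPD1 and HSPE1, which share a promoter. The latter had an exact permutation p of 0.064 and an adjusted p of 0.17 over the 6 pairs, with a Spearman rho of 0.43 (exact permutation p 0.35, adjusted 0.71). Leaving out the 2 tumours farthest from the median of HSPD1 turned its r to -0.14. Such an omission also narrows the range of values, so it cannot show that r rested on those tumours. HSPA5 with HSP90B1 had an r of 0.66 (exact permutation p 0.085, adjusted 0.17) that turned to -0.62 in the same way, with a rho of 0.46 (exact permutation p 0.30, adjusted 0.71). FKBP10 with SERPINH1, a collagen chaperone, had an r of 0.65 (exact permutation p 0.086, adjusted 0.17) that became 0.44, with a rho of 0.57 (exact permutation p 0.20, adjusted 0.71). As deviations from the group means these 3 values of r were 0.79, 0.61 and 0.67. With the median of all kept probes of a gene, HSPD1 with HSPE1 had an r of 0.80 (exact permutation p 0.035, adjusted 0.21), HSPA5 with HSP90B1 a rho of 0.82 (exact permutation p 0.034, adjusted 0.20), and FKBP10 with SERPINH1 an r of 0.32 (exact permutation p 0.57, adjusted 0.57), which turned to -0.79 without the 2 farthest tumours.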

How the data were processed

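RNA of 7 tumours was hybridised by the authors to 1 Agilent Canine V2 array each. The deposited files hold spot and background intensity on a linear scale, with a processed intensity, written per the file headers by Feature Extraction 10.7.3.1. Robust multi-array averaging and a correction for an unnamed batch are given in the study's methods. Here the mean intensity was corrected by normexp (saddle, offset 50) with limma 3.58.1 in R 4.3.3, quantile-normalized and put on the log2 scale. Control spots and 144 outlier-marked values were left out, which gave 43603 probes, of which 32309 were kept. Gene names, coordinates (canFam2) and sequences are those of the files. Probes without a symbol were taken as members only by description, and stayed out of the counts.

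Groups came from the labels, and tumour numbers name a tumour only. The number of arrays limits precision, and nothing further is known of replication. The groups were tested with limma's two-sided moderated test without covariates, Benjamini-Hochberg adjusted over all kept probes. With 4 and 3 tumours an exact permutation p cannot go below 0.0286. Named genes were fixed members, plus those with the smallest p among genes whose groups do not overlap (up to 8 members and 4 pathway genes), every FKBP4 probe, and any called member (0 were). Other genes that are named were picked after their values were seen. Members and lists were chosen with earlier results of these data known. The 21 alternatives to the fit changed the background correction, scaling, filter, test, covariates, slide handling or tumours included. Limma was checked on simulated data. Correlations used Python 3.11.15 with scipy 1.17.1. The result for 1 gene of the pathway lists is not reported here.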

Additional observations from a re-analysis of the deposited data

Results flagged for a closer look

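For 38 values (named genes without FKBP4, and class values) the most distant of the 4 deleted tumours was set against the rest, as its distance to the closest other tumour over the range of the 4, and 3 values passed Dixon's limit for 4 values. Chance passes about 1 in 20, or 1.9 of 38. CCT5 had a ratio of 0.844, since deleted tumour 4 read 11.73 and the next tumour 11.31. FKBP2 had a ratio of 0.837, with deleted tumour 4 at 11.48 and the next at 10.82. The value of the cytosolic and nuclear DNAJ class had a ratio of 0.91, with deleted tumour 3 at -0.26 and the next tumour at 0.04.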

How the results depend on the processing

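Over the whole array, 10 probes were called on the processed signal with 75th percentile scaling, 4 on it with quantile normalization, 23 with normexp and 75th percentile scaling, 1 with slide as a random block, 4 with trend and robust options, 3 with array weights and 46 without wild-type tumour 3, against 0 to 46 over all single omissions. Of the members tested, which leave out FKBP4, 0 were called under these alternatives. The t-test that the methods name, run here on the normexp and quantile-normalized values, called 0 probes, with 2246 at an unadjusted p below 0.05, and limma had 2355. The study reported differentially expressed probes after robust multi-array averaging and a batch correction. Its procedure was therefore not repeated here. Normexp with 75th percentile scaling moved the median of all kept probes to 0.32, so its values are best read against that.

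The CCT median was -0.57 on the processed signal with 75th percentile scaling, -0.70 with normexp and 75th percentile scaling, -0.59 with probes above background on all 7 arrays, -0.31 with slide as a fixed block and -0.33 with age as a covariate, and -0.55 to -0.32 over single omissions (lowest without deleted tumour 2, highest without deleted tumour 4). The cytosolic HSP70 and HSP110 median was 0.070 and the small HSP median 0.26 with age as a covariate. The cytosolic DNAJ median was -0.29 and -0.26 on the processed signal with percentile and quantile scaling and 0.19 with normexp and 75th percentile scaling. For the cytosolic FKBPs, which include FKBP4, the block on slide gave 0.23. That was the value of FKBP4 probe A_11_P0000023022 itself. The mitochondrial median was -0.15 with slide as a fixed block, -0.085 with session as a term, and -0.22 to 0.057 over single omissions (lowest without deleted tumour 4). Session here is a split by the hour of feature extraction. It was before noon for deleted tumours 2, 3 and 4 and wild-type tumour 2, and later for the rest. The labels name no such session, and it partly follows the groups. The cause of these shifts was not tested.

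Of 668 values of named genes and FKBP4 probes under alternatives, 30 had the opposite sign to that reported. With age as a covariate these were HSPH1 (0.70), DNAJB4 (0.22), HSP90B1 (0.13), DNAJC3 (-0.063) and FKBP5 (-0.23). With slide as a fixed block they were HSPA8 (-0.12), HSPB1 (-0.33), DNAJB9 (-0.038), FKBP14 (0.013) and FKBP4 probe A_11_P0000023022 (0.23). HSPB1, reported at 0.01, also read -0.029 and -0.069 on the processed signal, -0.36 with normexp and 75th percentile scaling, -0.047 with slide as a random block, -0.13 with that session term and -0.16 with array weights, and -0.19 to 0.14 over single omissions. With normexp and 75th percentile scaling DNAJC3 was -0.18, FKBP14 0.026 and FKBP4 probe A_11_P123001 0.0019. A_11_P0000023022 was 0.10 on the processed signal with 75th percentile scaling and 0.016 with array weights, and ran from -0.22 to 0.056 over single omissions. Over single omissions DNAJB9 ran from -0.079 to 0.25, DNAJC3 from -0.025 to 0.40, FKBP10 from -0.52 to 0.043 and FKBP5 from -0.022 to 0.72. CCT3, CCT5, HSPA4, DNAJA4 and FKBP2 had the reported sign under all 21 alternatives. So did, among others, HSPA2, HSP90AB1, HSPB8, DNAJB1, HSPA5, HSPA9, DNAJA3 and FKBP1A, whose groups overlapped. Groups without overlap keep their sign whichever tumour is left out, so the single omissions could not reverse the genes named first. No paired analysis was possible because the labels carry no number that ties a deleted to a wild-type tumour.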
